A study of Mus musculus with 3 samples.

Results

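The genes described here encode the machinery that fuses vesicles with their target membranes: the SNARE proteins themselves, the synaptotagmins and complexins that tie fusion to calcium, and the proteins that assemble SNARE complexes and take them apart. Members were chosen by a rule on gene symbols: every numbered synaptotagmin (Syt), VAMP, syntaxin (Stx), syntaxin-binding protein (Stxbp) and complexin (Cplx), the genes Snap23, Snap25, Snap29, Snap47 and Snap91, the SNAP adaptors Napa, Napb and Napg, and Nsf. This gave 58 genes of the 47593 rows of the expression tables. Snap91 fits the symbol rule but encodes a clathrin adaptor that is not a SNARE, and it is kept apart below.

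RNA was sequenced in 3 libraries of wild-type (WT) primary neurons of the mouse hippocampus, where new memories are laid down. All 3 form 1 group, cells that received fresh medium containing penicillin-streptomycin and B27, a serum-free supplement for neurons. The cultures had been grown at 37 °C under 5% CO2 in Neurobasal, with GlutaMAX at 1% and B27 at 10%, and the design names a treatment time of 24 h. The design also names neurons given particles of apolipoprotein E, which were not analysed here, so no treatments were compared. Age, sex and strain of the animals, and whether the 3 libraries came from separate cultures, are not stated in the labels, and the spread between libraries may therefore be technical.

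In fast synaptic release, a SNARE of the vesicle (VAMP) zips together with SNARE proteins of the plasma membrane (a syntaxin and a member of the family of Snap25) into a bundle of helices that pulls the membranes into contact. Synaptotagmins bind calcium through C2 domains and trigger fusion, complexins hold and then activate the assembled bundle, and syntaxin-binding proteins guide the assembly. The ATPase encoded by Nsf, with its SNAP adaptors, pulls spent complexes apart so that they can be used again. Other SNAREs serve the endosome, lysosome, Golgi and endoplasmic reticulum of every cell.

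Levels are given as CPM, reads per 1000000 reads of the library, and, for comparisons between genes, as CPM per kilobase (kb) of annotated exon. Both come from whole reads recovered from the deposited log2 values. The libraries held 18780578, 18683959 and 18885652 reads, and 3 reads corresponded to 0.159 to 0.161 CPM, which is the level below which a gene without reads could still lie. Mitochondrially encoded genes took 7.13%, 8.25% and 7.61% of reads. The labelled cell type was checked with marker genes: 8 of 8 neuron markers were detected, with 4615 to 4712 CPM in sum. The cultures also held astrocyte transcripts, with 8 of 8 markers at 1898 to 1923 CPM in sum. Of the oligodendrocyte precursor markers, 5 of 6 were detected, and the list summed to 252 to 271 CPM. Olig1 and Olig2 supplied most of that sum, with means of 159 and 67.1 CPM. Pdgfra had 28.4, Cspg4 6.28, Sox10 2.89 and Gpr17 0.213 CPM. Oligodendrocyte markers reached 34.7 to 37.0 CPM with Opalin at 0, endothelial markers 5.14 to 5.43 CPM with Cldn5 at 0, and microglia markers 2.82 to 4.98 CPM with 0 of 8 detected. Of 4 neuroendocrine markers, Chga alone was detected, and Gh and Prl were at 0. A level in such a mixture cannot tell apart fewer cells of a type and less RNA per cell, and the part of astrocytes in the levels below was not tested.

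RNA of most of the fusion machinery was found in these cultures. At 1 CPM or more in every library, 51 of 58 members were detected, or 87.9%, where the same rule detected 28.7% of all rows and 58.2% of protein coding genes. Together the members took 0.711%, 0.713% and 0.728% of all reads, a mean of 0.717% ± 0.00914 (SD, n = 3). The median level of the detected members was 10.9 CPM per kb, and that of all detected genes 6.36 CPM per kb. Of the 51 detected members, 33 lay above the median of all detected genes and 15 in the highest decile. Reads were concentrated in few genes, with 62.0% of all member reads in the 10 members that had most. The members below 1 CPM in at least 1 library were Cplx3, Cplx4, Syt8, Syt15, Stx19, Vamp5 and Vamp8.

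**Figure D1:**
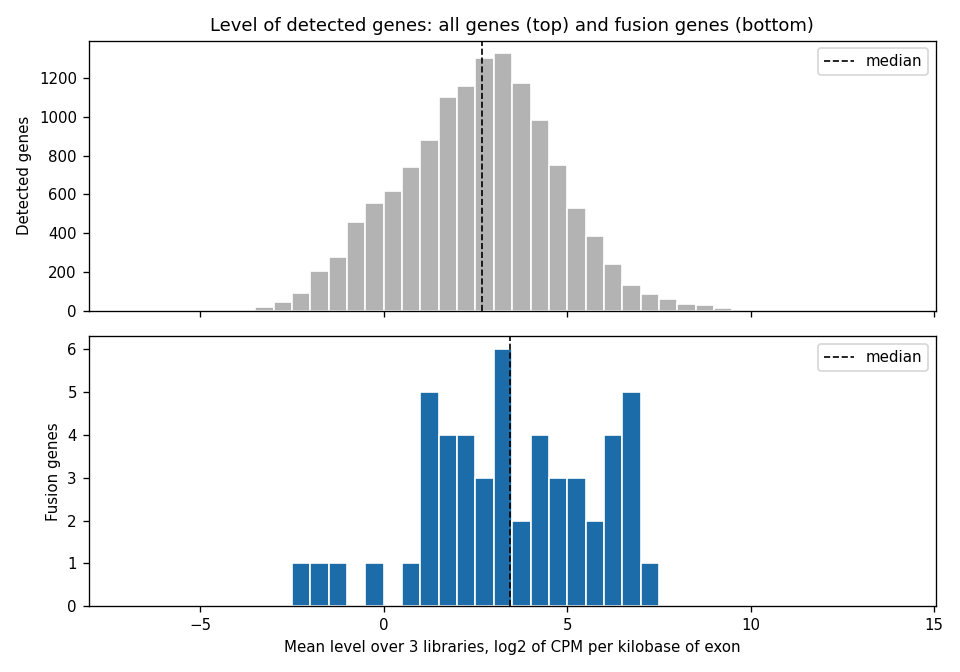
Histograms of the mean level over 3 libraries, in log2 of CPM per kilobase of exon, for the 13214 detected genes with an annotated length (upper panel) and for the 51 detected fusion genes (lower panel), with dashed lines at the medians of 6.36 and 10.9 CPM per kb. The vertical axes count genes. The detected fusion genes run from 0.197 CPM per kb for Syt2 to 136 CPM per kb for Cplx2.

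The members differed in the DNA before their start sites as well as in level. RefSeq promoter entries (GRCm38.p6) were found for 44 of 58 members, and the 250 bases before the start were read for CpG, the dinucleotide that is methylated in most of the mouse genome and is kept dense in the promoters of widely expressed genes. Where RefSeq lists several starts, as for 9 of the 44, the start nearest the 5′ end of the gene model was used. The windows are not all free of transcribed sequence: 29 of the 44 hold annotated exon bases, which were counted with the rest. Those of Syt11, Syt15, Stx8 and Stx18 lie wholly in annotated exons. For 4 genes the RefSeq start lies more than 1000 bases from the 5′ end of the gene model behind the levels, with 68793 bases for Cplx2. To show the range, 3 synaptotagmins and 3 syntaxins are printed below, each 5′ to 3′ on the gene's own strand in lower case with every CG dinucleotide in capitals. They were picked after their levels and CpG counts were seen, with the windows of Syt1, Syt8 and Syt10 at chr10:109010976-109011225 (minus strand), chr7:142434600-142434849 (plus) and chr15:89841861-89842110 (minus), and those of Stx1a, Stx7 and Stx19 at chr5:135023232-135023481, chr10:24149039-24149288 and chr16:62814426-62814675 (all plus).
Syt1: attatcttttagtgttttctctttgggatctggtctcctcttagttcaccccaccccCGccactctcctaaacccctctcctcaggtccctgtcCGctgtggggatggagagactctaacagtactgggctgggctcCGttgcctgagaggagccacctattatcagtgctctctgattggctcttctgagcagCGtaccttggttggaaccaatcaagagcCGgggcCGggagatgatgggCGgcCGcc
Syt8: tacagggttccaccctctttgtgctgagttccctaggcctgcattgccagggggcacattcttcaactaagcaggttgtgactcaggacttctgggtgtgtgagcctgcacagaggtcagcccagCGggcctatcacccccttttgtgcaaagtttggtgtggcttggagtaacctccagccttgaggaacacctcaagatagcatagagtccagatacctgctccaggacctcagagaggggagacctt
Syt10: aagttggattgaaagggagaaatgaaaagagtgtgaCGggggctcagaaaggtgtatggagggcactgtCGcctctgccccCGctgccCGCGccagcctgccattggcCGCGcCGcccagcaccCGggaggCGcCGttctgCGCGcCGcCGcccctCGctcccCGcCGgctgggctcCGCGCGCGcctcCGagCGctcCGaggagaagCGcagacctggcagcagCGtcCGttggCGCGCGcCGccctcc
Stx1a: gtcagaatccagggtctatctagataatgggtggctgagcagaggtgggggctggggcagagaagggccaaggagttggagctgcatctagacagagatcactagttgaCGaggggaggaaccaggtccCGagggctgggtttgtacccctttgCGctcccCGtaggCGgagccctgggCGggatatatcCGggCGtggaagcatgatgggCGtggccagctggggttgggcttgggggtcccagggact
Stx7: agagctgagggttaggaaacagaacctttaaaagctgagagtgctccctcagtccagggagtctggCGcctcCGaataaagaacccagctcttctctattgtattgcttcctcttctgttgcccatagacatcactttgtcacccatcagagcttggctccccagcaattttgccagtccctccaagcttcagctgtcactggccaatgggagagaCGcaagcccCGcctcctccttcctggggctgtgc
Stx19: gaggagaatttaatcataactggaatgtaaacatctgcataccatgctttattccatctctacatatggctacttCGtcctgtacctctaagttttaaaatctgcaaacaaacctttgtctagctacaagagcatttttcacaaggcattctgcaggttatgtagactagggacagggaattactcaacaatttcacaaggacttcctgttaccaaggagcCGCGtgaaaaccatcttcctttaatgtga

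Syt8, which had no read in any library, held 1 CG in its window, and Stx19, with 2, 0 and 1 reads, held 3. Syt10 held 32 CG dinucleotides at a level of only 2.09 ± 0.376 CPM per kb. The window of Stx7 held 4, yet Stx7 was the highest syntaxin at 64.5 ± 1.16 CPM per kb. Syt1 and Stx1a, both prominent genes of synaptic release, held 8 and 9. The sparse windows thus included those of the gene without reads and of the highest syntaxin, and the densest window of the 6 belonged to a gene of low level.

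Scaled to base composition as observed over expected CpG (the count of CG times the length, divided by the product of the counts of C and G), the median was 0.685 over the 44 members and 0.379 over the promoters of 27025 genes. A ratio under 0.4 was found for 6 of 44 members, or 13.6%, and for 51.7% of all promoters. Among the 38 detected members with an entry, 2 lay under that ratio, Stx7 at 0.225 and Syt3 at 0.354. Among the 6 members below 1 CPM with an entry, 4 did: Syt8 at 0.0533, Vamp8 at 0.254, Stx19 at 0.317 and Cplx3 at 0.366. The remaining members below 1 CPM were Syt15 at 0.496 and Vamp5 at 0.707. The promoters of all genes were not split by detection. Whether these shares, or the higher median of the members, are particular to fusion genes was therefore not tested. Short motifs were also searched on both strands of the same windows. GGGCGG, the core of the GC box, was found in 28 of 44 members, or 63.6%, and in 33.0% of all promoters. On either strand it contains a CG, so each hit holds a CpG that was counted above. Whether this share is particular to fusion genes was not tested either. TATAAA was found in 1 of 44 members (Stx3) and in 12.9% of all promoters, and TGACGTCA, the full cAMP response element, in 1 of 44 (Stxbp3) and in 1.61% of all promoters.

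**Figure D2:**
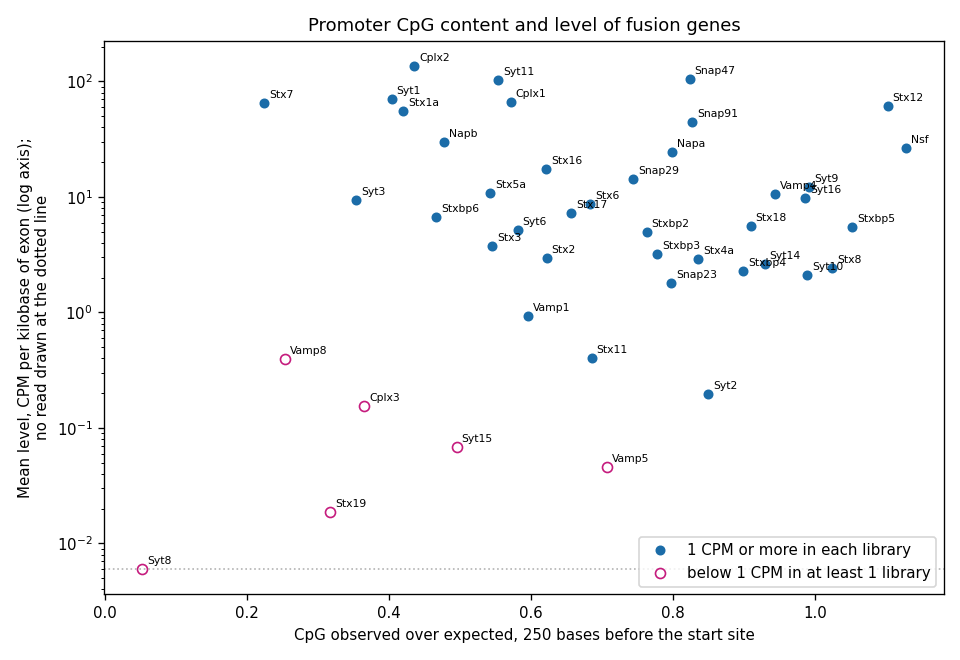
Observed over expected CpG in the 250 bases before the start site (horizontal axis, no unit) against the mean level over 3 libraries in CPM per kilobase of exon (vertical log axis) for the 44 fusion genes with a promoter entry. Filled points are detected genes and open points genes below 1 CPM. Left of a ratio of 0.4 lie 4 of the 6 open points and 2 of the 38 filled points. The same split was not made for all genes.

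The SNAREs of synaptic release were led by Vamp2, the synaptobrevin of synaptic vesicles (chromosome 11, 69088490 to 69092384 in GRCm38, plus strand). Vamp2 stood at 450, 435 and 500 CPM in replicates 1, 2 and 3, a mean of 121 ± 8.96 CPM per kb, and replicate 3 was highest. Snap25, the palmitoylated partner that contributes a pair of helices to the bundle (chromosome 2, 136713453 to 136782428, plus strand), stood at 299, 303 and 303 CPM, or 44.4 ± 0.354 CPM per kb. Its 3 values lay close together, with a coefficient of variation (CV) of 0.798%. Stx1a, a plasma membrane syntaxin of the synapse (chromosome 5, 135023482 to 135051100, plus strand), whose start region is printed above, stood at 152, 141 and 150 CPM (55.5 ± 2.26 CPM per kb), with replicate 2 lowest.

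Vamp1, the synaptobrevin prominent at neuromuscular and spinal synapses, was the lowest of the release SNAREs at 9.26, 8.56 and 10.7 CPM (0.937 ± 0.110 CPM per kb). All 5 genes of this list were detected, and together they took 0.113% ± 0.00434 (SD, n = 3) of all reads. Within each library Vamp2 exceeded Vamp1 by 6.39, 6.42 and 6.40 on the log2 scale of CPM per kb with 0.5 added, a mean of 6.40 ± 0.01 (SD), or 84.7-fold. The size depends on the value added and on length: it was 7.02 with nothing added, 4.41 with 5 added and 5.53 without length scaling. Over Vamp3, a VAMP of constitutive recycling, the difference was 3.41 ± 0.12. Vamp2 also exceeded Snap25 by 1.44 ± 0.10, and by 0.61 without length scaling. Snap25 exceeded Snap23, its counterpart outside synaptic release, by 4.29 ± 0.15, or 19.5-fold, with 2.86 when 5 was added and 5.20 without length scaling.

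**Figure D3:**
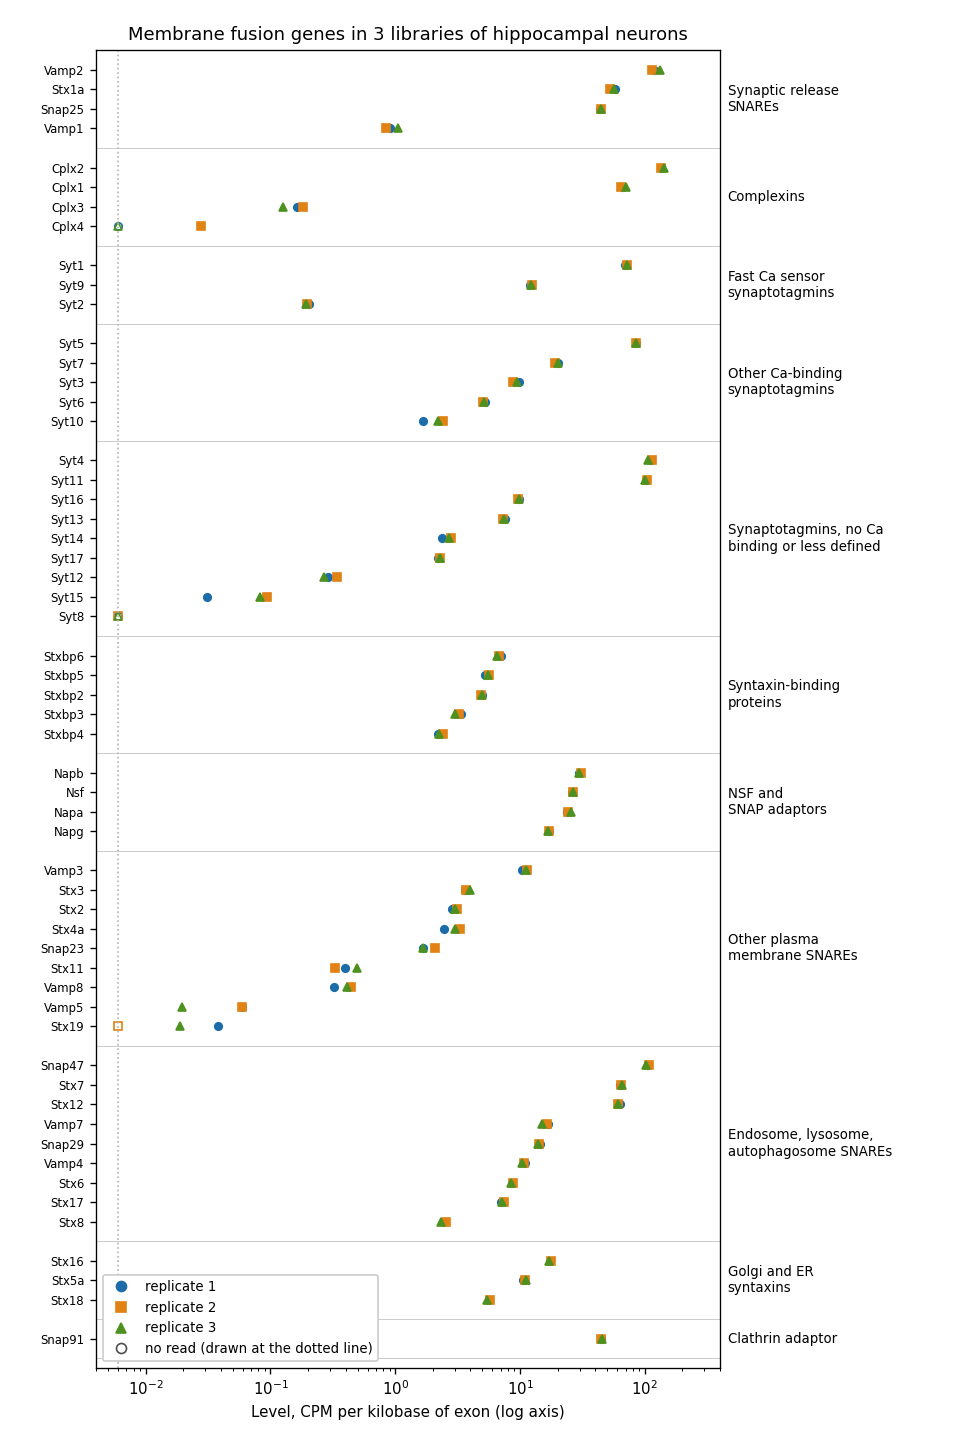
Level of 56 fusion genes in CPM per kilobase of exon (log axis), with 1 point per library (circle, replicate 1; square, replicate 2; triangle, replicate 3) and the genes grouped by role. Open symbols on the dotted line stand for no read. Within most roles the genes differ far more than the libraries do: Vamp2 at 121 and Vamp1 at 0.937 CPM per kb, for example, or Cplx2 at 136 and Cplx3 at 0.156 CPM per kb.

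Complexins are small soluble proteins that lie along the assembled SNARE bundle. Cplx2 (chromosome 13, 54371349 to 54383917, plus strand) had the highest level per kb of all 58 members, at 661, 659 and 697 CPM (136 ± 4.35 CPM per kb), which placed it at percentile 98.3 of detected genes. That rank rests on exon length. The longest transcript of Cplx2 equals its exon total of 4928 bases, but that of Vamp2 has 2205 of 3809 bases and that of Snap47 1896 of 2651. With the longest transcript, Vamp2 and Snap47 lie above Cplx2 per kb. Cplx1, the complexin typical of inhibitory neurons and of fast brainstem synapses (chromosome 5, 108518554 to 108550024, minus strand), stood at 143, 140 and 155 CPM (66.7 ± 3.58 CPM per kb). Both complexins were highest in replicate 3. Cplx2 exceeded Cplx1 by 1.03, 1.05 and 0.99 on the log2 scale, a mean of 1.03 ± 0.03 or 2.04-fold. Without length scaling the mean difference was 2.20, or 4.59-fold. Cplx2 supplied 67.1% ± 0.467 and Cplx1 32.8% ± 0.490 of the summed level per kb of the family. The complexins known from the ribbon synapses of the retina were at the limit of detection, Cplx3 with 9, 10 and 7 reads and Cplx4 with 0, 1 and 0 reads.

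Among the synaptotagmins that trigger fast release, Syt1 dominated. Syt1 (chromosome 10, 108497650 to 109010982, minus strand), whose start region is printed above, stood at 576, 598 and 602 CPM (71.0 ± 1.69 CPM per kb), with replicate 1 lowest. Syt9, another fast sensor, stood at 47.7, 49.5 and 48.5 CPM (12.2 ± 0.226 CPM per kb). Syt2, the sensor of many fast hindbrain and inhibitory synapses, had 29, 28 and 28 reads, or 0.197 ± 0.00418 CPM per kb, the lowest level of the detected members. Syt1 exceeded Syt2 by 6.68 ± 0.04 on the log2 scale of CPM per kb with 0.5 added, or 102-fold. Since Syt2 lay below the added 0.5, this size rests on it: the difference was 8.49 with nothing added and 3.87 with 5 added. Syt1 exceeded Syt9 by 2.49 ± 0.02, or by 3.59 without length scaling and 3.22 with the longest annotated transcript. Against Cplx2, with which its product acts on the same complex, Syt1 differed by -0.94 ± 0.04 per kb of all exons, but by only -0.15 with the longest transcript and -0.18 without length scaling. The symbols are those of the deposited tables, since the names Syt5 and Syt9 have been used for each other in parts of the literature.

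The other calcium-binding synaptotagmins serve slower release, plasticity and the secretion of dense-core vesicles. Syt5 led them at 202, 200 and 202 CPM (84.7 ± 0.4005 CPM per kb), with a CV of 0.473%, and lay above Syt1 per kb. That order rests on exon length. With the longest transcript Syt1 had 22.9% and Syt5 21.5% of the summed level of the family, and mean CPM was 592 for Syt1 and 201 for Syt5. Syt7, the high-affinity sensor linked to asynchronous release and facilitation, stood at 150, 144 and 151 CPM (19.8 ± 0.493 CPM per kb), and Syt1 exceeded it by 1.82 ± 0.05 in log2, or by 2.43 with the longest transcript. Of its exon bases, 5.13% overlap an antisense gene. Syt3 stood at 30.4, 27.3 and 29.4 CPM and Syt6 at 30.5, 29.2 and 30.2 CPM, similar in CPM but at 9.31 and 5.14 CPM per kb. Syt10, known for secretion of growth factor in the olfactory bulb, was lowest of the list at 3.09, 4.44 and 4.02 CPM. All 5 genes of this list were detected.

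Synaptotagmins that bind no calcium, or whose role is less defined, included the highest levels of the family. Syt4, which serves dense-core vesicles and postsynaptic membrane traffic and is induced by activity in neurons, stood at 435, 444 and 415 CPM (111 ± 3.77 CPM per kb). Syt11, its closest relative, stood at 528, 539 and 525 CPM (102 ± 1.44 CPM per kb). Both were lowest in replicate 3. Syt4 exceeded Syt11 by 0.14, 0.14 and 0.08 in log2 per kb, but without length scaling the difference was -0.30. An antisense gene overlaps 14.5% of the exon bases of Syt4.

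The remaining genes of this list were lower. Syt16 stood at 89.0, 88.0 and 88.9 CPM (9.69 ± 0.0587 CPM per kb), a CV of 0.605%. Syt13 stood at 28.6, 27.5 and 28.2 CPM (7.46 CPM per kb) and Syt14 at 28.3, 33.5 and 32.0 CPM (2.62 CPM per kb), with replicate 1 lowest for Syt14. Syt17, an unusual member that lacks the membrane anchor of its relatives, stood at 11.5, 11.9 and 11.9 CPM (2.26 CPM per kb). Syt12, a phosphoprotein of synaptic vesicles, stood at 1.60, 1.87 and 1.48 CPM, and 17.2% of its exon bases overlap an antisense gene. Syt15 had 3, 9 and 8 reads. Syt8, of which the printed start region holds 1 CG, had 0 reads in all 3 libraries, which allows up to 0.161 CPM by counting error.

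Ranked by level per kb, the 15 detected synaptotagmins ran from Syt4, Syt11, Syt5 and Syt1 through Syt7, Syt9, Syt16, Syt3, Syt13, Syt6, Syt14, Syt17 and Syt10 to Syt12 and Syt2. Of the 14 neighbouring pairs in this order, the libraries overlapped for 2, Syt16 with Syt3 and Syt17 with Syt10. The first 4 genes supplied 25.2%, 23.2%, 19.3% and 16.2% of the summed level per kb of the family. This order rests on exon length: with the length of the longest annotated transcript, Syt1 came first with 22.9% and Syt4 had 20.7%.

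Proteins that bind syntaxins include chaperones of assembly and inhibitors with a SNARE-like motif, and all 6 genes of this list were detected. Stxbp2, the form of secretory blood and epithelial cells, stood at 20.5, 20.2 and 20.7 CPM (4.92 CPM per kb). Stxbp5, or tomosyn, which carries a SNARE-like motif and restrains assembly, stood at 87.0, 93.4 and 91.4 CPM (5.49 CPM per kb). Stxbp6, or amisyn, another gene with such a motif, stood at 37.1, 36.0 and 34.4 CPM (6.76 CPM per kb). Stxbp4, known from glucose transporter traffic, stood at 26.1, 28.6 and 26.6 CPM (2.29 CPM per kb). Stxbp3, the widely expressed partner of Stx4a, stood at 17.8, 17.3 and 16.04 CPM (3.19 CPM per kb), and 11.2% of its 31-base words recur in other genes, mainly its pseudogene.

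The genes of complex disassembly ran from 16.9 to 30.1 CPM per kb, and in mean CPM from 92.6 for Napa to 220 for Nsf. Nsf, the ATPase, stood at 217, 221 and 223 CPM (26.4 ± 0.342 CPM per kb). Napb, the adaptor specific to the brain, stood at 210, 217 and 209 CPM (30.1 ± 0.683 CPM per kb). Napa, the general adaptor, stood at 90.7, 90.99 and 96.3 CPM (24.5 ± 0.829 CPM per kb), and Napg stood at 146, 145 and 143 CPM (16.9 ± 0.223 CPM per kb). Napb exceeded Napa by 0.29 ± 0.07 in log2, and by 1.19 without length scaling. Nsf minus Napb was -0.18 ± 0.04, but 0.057 without length scaling and 0.28 with the longest transcript, so the order of these genes per kb depends on the length used. All 4 were detected, with 0.0670% ± 0.000516 (SD, n = 3) of all reads.

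SNAREs of the plasma membrane outside the synaptic set were low. Of 9 genes, 6 were detected, and together they took 0.00841% ± 0.000440 (SD, n = 3) of reads, against 0.113% for the 5 release SNAREs. The highest were Vamp3 at 29.9, 32.6 and 32.1 CPM (10.9 CPM per kb), and Stx3, a syntaxin of apical membranes and of ribbon synapses, at 20.5, 21.03 and 22.6 CPM (3.74 CPM per kb). Next came Stx2 at 13.0, 14.3 and 13.7 CPM (2.99 CPM per kb). Stx4a and Snap23, partners in regulated secretion of many non-neuronal cells, had means of 6.92 and 7.76 CPM, and Stx11, a syntaxin of immune cell granules, 1.70 CPM. Vamp8, a SNARE of mast cells and exocrine glands, had 14, 19 and 18 reads and reached 1 CPM only in replicate 2. Vamp5, best known from muscle, had 3, 3 and 1 reads, and Stx19, a syntaxin of epithelia, 2, 0 and 1. Vamp5 (72368794 to 72380468) and Vamp8 (72385223 to 72390703) are neighbours on the minus strand of chromosome 6, 4754 bases apart, and both lay below 1 CPM in at least 1 library.

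Endosomal, lysosomal and autophagic SNAREs were all detected, 9 of 9, with 0.105% ± 0.000958 (SD, n = 3) of reads. Snap47, a member of the family of Snap25 found in intracellular membranes and in dendritic exocytosis (chromosome 11, 59407134 to 59451186, minus strand), led per kb. It stood at 282, 284 and 272 CPM (105 ± 2.30 CPM per kb), above Snap25 per kb. Without length scaling, both Stx7 and Snap25 were higher than Snap47 in each library, Snap25 at 299, 303 and 303 CPM. Of its exon bases, 11.6% overlap the antisense gene Jmjd4. Stx7, the syntaxin of late endosomes whose CpG-poor start region is printed above, stood at 285, 287 and 295 CPM (64.5 ± 1.16 CPM per kb). Stx12, a syntaxin of recycling endosomes, stood at 200, 195 and 194 CPM (61.6 ± 1.05 CPM per kb). The log2 difference of Stx12 minus Stx7 was -0.02, -0.07 and -0.11, a mean of -0.07 ± 0.05. Snap47 exceeded Snap29, which acts with Stx17 in the fusion of autophagosomes with lysosomes, by 2.85 ± 0.02.

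The other members of this list ranged from Vamp7, a SNARE of lysosomes and neurite growth, at 16.1 CPM per kb to Stx8 at 2.43 CPM per kb. Snap29 lay at 14.2, Vamp4, which links the Golgi with endosomes, at 10.7, Stx6 at 8.62 and Stx17 at 7.24 CPM per kb. Vamp4 minus Vamp7 was -0.57 ± 0.05 in log2, but 0.26 without length scaling and 0.14 with the longest transcript. Of the Golgi and endoplasmic reticulum syntaxins, Stx16 stood at 68.5, 69.6 and 67.8 CPM (17.3 CPM per kb). Stx5a stood at 61.2, 63.7 and 64.3 CPM (10.9 CPM per kb) and Stx18 at 25.7, 26.5 and 24.7 CPM (5.58 CPM per kb). For Stx18, 32.3% of exon bases overlap antisense genes, Nsg1 among them, so that its level is uncertain. Snap91, the clathrin adaptor AP180 of synaptic vesicle endocytosis, stood at 403, 404 and 413 CPM (44.6 ± 0.584 CPM per kb), and its library values per kb overlapped those of Snap25.

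Set side by side per kb, the detected syntaxins named here ran in the order Stx7, Stx12, Stx1a, Stx16, Stx5a, Stx6, Stx17, Stx18, Stx3, Stx2, Stx4a, Stx8 and Stx11, with overlapping libraries for Stx2 with Stx4a and Stx4a with Stx8. No single syntaxin dominated, since Stx7 supplied 22.5%, Stx12 21.5% and Stx1a 19.4% of the summed level per kb. Among the VAMPs, by contrast, Vamp2 alone supplied 75.6% ± 1.80, and Vamp3 and Vamp4 overlapped. Snap47 supplied 50.1% of the sum over the 5 Snap genes, Snap91 21.2% and Snap25 21.1%. With the longest transcript in place of all exons the shares of Vamp2, Stx7 and Snap47 were 80.4%, 23.3% and 48.7%.

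In all, 15 pairs of relatives or partners were compared within libraries. The first gene was higher in 3 of 3 libraries for 11 pairs and the second for 4, and every mean difference was larger than its SD, which ran from 0.01 to 0.15. With 3 libraries the exact two-sided sign-flip permutation test cannot give a p below 0.25, and each pair had that value, 0.25 after Benjamini-Hochberg adjustment over the 15 pairs, so none could pass a threshold of 0.05. For 10 of the 15 pairs another length or added value moved the ratio by more than 1.5 times, as given beside each pair.

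**Figure D4:**
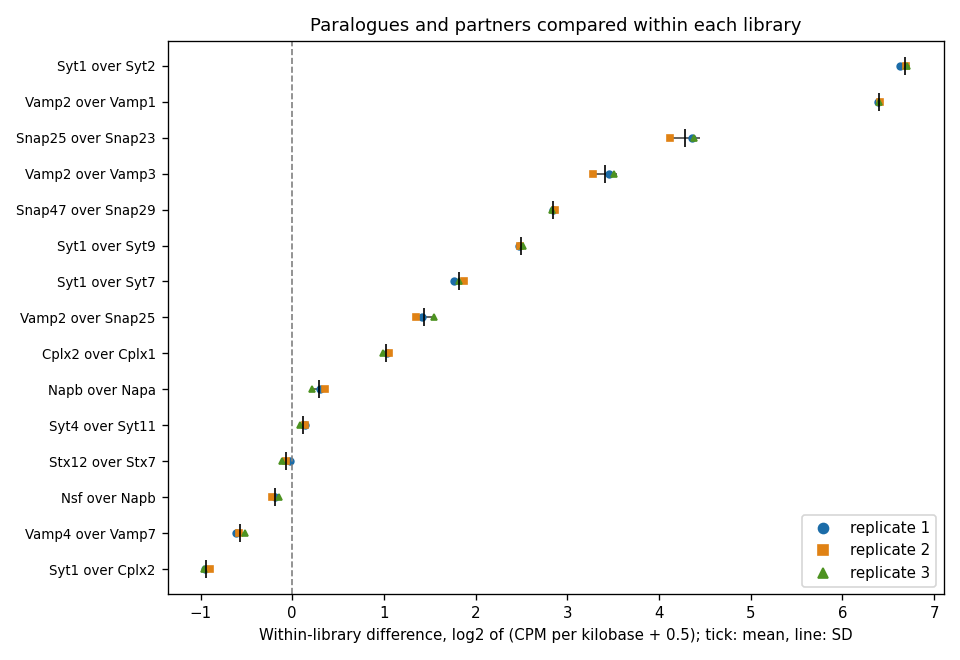
Within-library difference of 15 gene pairs on the log2 scale of CPM per kilobase with 0.5 added, with 1 symbol per library, a tick at the mean and a line for the SD (n = 3); the dashed line marks equal levels. Pairs range from Syt1 over Syt2 at 6.68 to Syt1 over Cplx2 at -0.94, and the 3 libraries of a pair lie on the same side of 0 in each of the 15.

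How far the libraries differed was tested for each gene with a mean of 10 reads or more, with a Pearson chi-square statistic against the counting error that reads alone would give. At an adjusted p under 0.05, over all genes tested, 6 of 52 members varied beyond counting error, or 11.5%, beside 8.62% of all 15131 genes. Against the wider spread that genes of the same abundance show (the dispersion trend), 0 of 52 members were called, beside 0.337% of all genes. At an unadjusted p under 0.05 these counts were 8 and 2 of 52, or 15.4% and 3.85%, beside 20.7% and 6.43% of all genes, so by that threshold the members' shares lay below those of all genes. Of the called genes, 5 are named here, all abundant, where counting error is small: Vamp2 (adjusted p = 4.48e-20), Cplx2 (1.17e-05), Syt1 (0.00311), Cplx1 (0.00423) and Syt4 (0.00423), from the chi-square test with Benjamini-Hochberg adjustment. Their adjusted p against the dispersion trend ran from 0.305 for Vamp2 to 0.987 for Syt1 and Syt4.

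These 5 genes did not move as 1 block. Vamp2, Cplx1 and Cplx2 were highest in replicate 3, Syt1 was lowest in replicate 1, and Syt4 was lowest in replicate 3. From the lowest to the highest library, Vamp2 differed 1.15-fold, Cplx1 1.10-fold, Syt4 1.07-fold, Cplx2 1.06-fold and Syt1 1.05-fold. Replicate 2, where Vamp2 was lowest, had the highest mitochondrial share, 8.25%, and the part of this in its level was not tested. Replicate 3 decided most of the calls: without it, 1 of the 52 members (1.92%) and 0 of these 5 were called, beside 5.49% of all genes. Without replicate 1, 5 members (9.62%) were called beside 7.83% of all genes, and without replicate 2, 5 members beside 2.20%. With size factors fitted in bins of GC content and length, 7 members (13.5%) were called beside 4.82% of all genes, among them Snap25 and Syt11 but not Syt4.

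**Figure D5:**
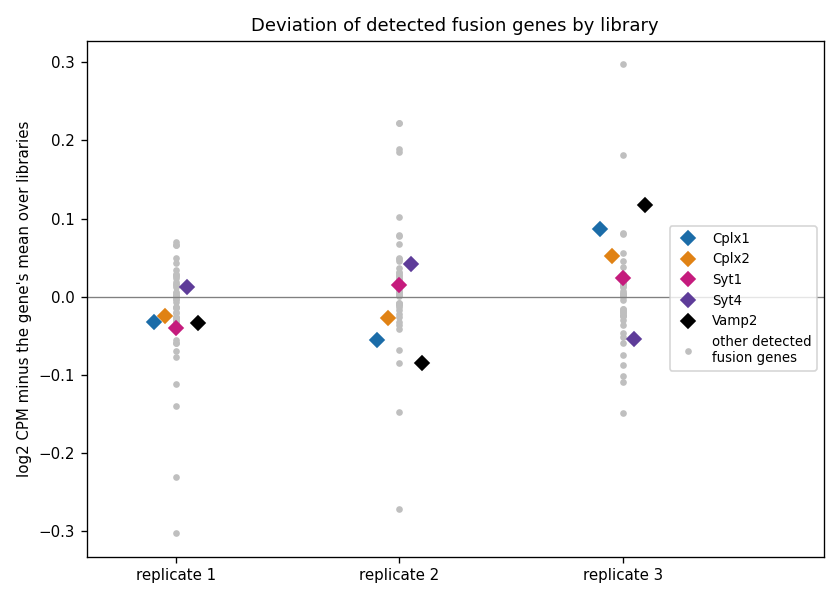
log2 CPM of detected fusion genes in a library minus its mean over the 3 libraries, with 5 genes that varied beyond counting error as coloured diamonds and the others as grey points. Vamp2, Cplx1 and Cplx2 lie above 0 in replicate 3 and below 0 in the other libraries, and Syt4 does the reverse; the widest grey points are genes with few reads such as Stx11 and Syt10.

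The role lists had their higher values in different libraries, a difference that was not tested. Release SNAREs were higher in replicate 3 than in the mean of the other libraries for 5 of 5 genes, with a median of 0.05 in log2. So were the other calcium-binding synaptotagmins for 5 of 5 (median 0.029) and the complexins for 2 of 2 (0.10). Fast sensor synaptotagmins were higher there for 1 of 3, as were Golgi and endoplasmic reticulum syntaxins. Nsf and the SNAP adaptors were higher there for 2 of 4 (median -0.0028). For synaptotagmins that bind no calcium or are less defined the count was 4 of 7 (median 0.0060). Not every list is given, and the same counts over all detected genes were not made. The detected plasma membrane SNAREs outside the synaptic set were higher in replicate 1 for 0 of 6, with a median of -0.11. Endosomal and lysosomal SNAREs were higher in replicate 3 for 1 of 9, with a median of -0.04. Of all 51 detected members, 20, 30 and 30 were higher in replicates 1, 2 and 3 than in the mean of the other libraries. Their median shifts were -0.022, 0.013 and 0.011 in replicates 1, 2 and 3, beside 0.015, -0.010 and -0.0045 over all detected genes. These medians are small and changed sign in places: replicate 1 had 0.0023 on the deposited log2 values, and replicate 3 had -0.015 with replicate 1 left out.

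The spread between libraries was small for the detected members, with a median CV of 2.77%, beside 4.89% over all detected genes, which have fewer reads. Within ranges of equal abundance, set by mean reads per library, the gap was narrower. Among genes with a mean of 1000 to 10000 reads the median CV was 2.06% for 23 members and 3.21% for all genes, with 100 to 1000 reads it was 4.67% and 5.31%, and with 10 to 100 reads 15.7% and 15.9%. Above a mean of 10000 reads per library the order turned, with 2.79% for 2 members and 2.33% for all genes. The small CVs given above for Snap25, Syt5 and Syt16 lay within counting error with the main size factors (chi-square test, adjusted p = 0.690, 0.968 and 0.978). Such small spreads over 3 libraries need not be a trait of the gene. On the deposited log2 values the median SD of the detected members was 0.013, and on recovered reads 0.040, since the deposited scale pulls libraries towards each other.

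Beyond the members, 57 other genes of the release pathway were listed by function, and 50 were detected. In priming and docking, 18 of 20 were detected. Rab3a, the vesicle GTPase, was highest at 158 ± 9.17 CPM per kb, above Cplx2, and Cadps, a priming factor of dense-core vesicles, had 18.9 ± 0.425. Unc13d and Prrt2 lay below 1 CPM with 14 and 8 reads in sum. Another gene on the same strand covers 92.4% of the exon bases of Prrt2, so its level is uncertain. Of the C2 domain relatives, 7 of 12 were detected, led by Rph3a at 34.2 ± 1.41 and Doc2b at 14.0 ± 0.134 CPM per kb. Sytl1, Sytl4 and Sytl5, synaptotagmin-like proteins of secretory cells, had 32, 13 and 21 reads in sum, Sytl3 had 0, and Esyt3 lay around the threshold with 57.

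The intracellular SNAREs whose symbols fall outside the rule were detected in 10 of 10 cases, with Ykt6 at 87.7 ± 1.98 and Vti1b at 60.2 ± 2.89 CPM per kb. The other Sec1/Munc18 proteins were detected in 5 of 5 cases, with Vps33a at 23.5 ± 0.633 and Vps45 at 8.73 ± 0.136 CPM per kb. Vesicle membrane genes were detected in 10 of 10 cases, led by the synapsin Syn1 at 105 ± 11.2 and by Syp, or synaptophysin, at 67.8 ± 1.42 CPM per kb. Of 52 such genes tested, 8 (15.4%) varied between libraries beyond counting error, beside 8.62% of all genes, and 1 (1.92%) beyond the dispersion trend, beside 0.337%. That gene was Syn1, at 340, 315 and 388 CPM (chi-square test, Benjamini-Hochberg adjusted p = 0.00972), lowest in replicate 2 and highest in replicate 3 as Vamp2 was. Rab3a also had its lowest and highest values in those libraries, at 350, 331 and 371 CPM, but passed the threshold only against counting error (adjusted p = 9.04e-09; 0.729 against the trend).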

How the data were processed

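Each of the 3 libraries was deposited as log2 values, 1 per gene, whose form is that of a regularized log: it pulls the libraries of a gene with few reads towards each other. Per the submitters' processing notes, FastQC, HISAT2, featureCounts and DESeq2 were used on GRCm38; versions, settings, annotation and use of strand are not given in the sources used. To recover reads, a penalised negative binomial fit with 6 fitted parameters was inverted. Whole numbers, to within 0.1, resulted for 99.9% of 77088 values and for all 58 members. All levels, shares and tests rest on these rounded reads. The planned main values were these reads where they came out whole. The recovery was also run on values simulated from the same penalised fit, which cannot show that the deposited values follow that fit.

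CPM is reads per 1000000, and lengths are the union of exons in GENCODE M21. Pair differences added 0.5 CPM per kb and were tested by exact sign-flip permutation, two-sided. Library variation used a Pearson chi-square on 2 degrees of freedom with median-of-ratios size factors over 15131 genes, with Benjamini-Hochberg adjustment. A single group left no contrast for count models. Sequence shared between genes was searched as words of 31 bases in the annotated transcripts; Vamp7 could not be searched. Promoters came from the RefSeq table of GRCm38.p6. Floors cover counting error only: without molecular identifiers, reads may be copies of 1 molecule.

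Named genes were the members, of which 2 are not reported here, with values per library for the release, synaptotagmin, syntaxin-binding and disassembly lists and called genes; of other role lists the 3 highest and those below 1 CPM; of other pathway lists the 2 highest and those below 1 CPM. Members, lists and pairs were chosen with earlier results of these data known. Python 3.11.15, numpy 2.4.6, pandas 2.3.3 and SciPy 1.17.1 were used.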

Additional observations from a re-analysis of the deposited data

How the results depend on the processing

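Of 181 alternatives over all results, 161 kept direction and call or stayed within the spread, 13 moved further and 7 reversed. With a minimum of 0.5 or 5 CPM, 52 or 47 members were detected. The share of reads rose to 0.777% with mitochondrially encoded genes left out of the total. Of 120 alternatives over the 15 pairs, 115 kept their direction, and the 5 that did not all changed the length: without length scaling Syt4 minus Syt11 was -0.30, Nsf minus Napb 0.057 and Vamp4 minus Vamp7 0.26, and with the longest transcript the last pairs were 0.28 and 0.14. With that length, a choice added after seeing the data, family shares were 20.7% (Syt4), 23.3% (Stx7), 80.4% (Vamp2), 48.7% (Snap47) and 26.1% (Napb). The median shift of members was 0.0023 in replicate 1 on deposited log2 values, and from -0.015 to 0.014 in replicate 3 with 1 other library left out (-0.015 without replicate 1). Genes beyond counting error numbered 729, in place of 1304, with size factors in bins of GC content and length; the cause was not tested. Leaving out 1 library in turn, genes beyond counting error numbered 334 to 1187, genes beyond the trend 7 to 30 in place of 51, and members beyond counting error 1 to 5 in place of 6; these fits have fewer samples. Members beyond the trend numbered 0 throughout. No paired comparison between conditions was possible because all libraries belong to 1 group. Depth limits the 7 members below 1 CPM, and exon unions longer than the expressed transcript limit every level per kb.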
